A study of Mus musculus with 12 samples.

Results

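Adrenergic, natriuretic and cAMP signalling was followed through 9 genes in mouse fat. They encode the receptors Adrb1, Adrb3, Adora1, Npr1 and Npr3, the adenylyl cyclase Adcy5, the protein kinase A subunit Prkar2b and the phosphodiesterases Pde3b and Pde4d. The 9 were taken by symbol from the 52550 genes of the deposited count table. PolyA RNA had been sequenced from 2 depots of mice on a high-fat diet: inguinal fat, a white depot (WAT), and brown fat (BAT). The control genotype was Mcu fl/fl, with the floxed Mcu gene intact. The AKO genotype was Mcu fl/fl AKO, an adipose tissue-specific knockout, so both genotypes carry the floxed alleles. Mcu encodes the pore of the uniporter through which mitochondria take up calcium. Each of the 4 groups (WAT control, WAT AKO, BAT control, BAT AKO) had 3 libraries. No source used here gives the Cre driver, the deleted exon, sex or age. The labels number the replicates without saying that they are separate animals. Each p-value therefore rests on the spread between libraries, which may not be the spread between animals.

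Noradrenaline from sympathetic nerves binds beta-adrenergic receptors on adipocytes, which act through the G protein Gs on adenylyl cyclase. Cyclic AMP then activates protein kinase A, which turns on lipolysis and, in brown fat, heat production by UCP1. Adenosine, acting through the Gi-coupled receptor ADORA1, lowers cyclic AMP, and phosphodiesterases degrade it. Natriuretic peptides drive lipolysis through cyclic GMP made by NPR1, while NPR3 takes the peptides up and clears them.

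The libraries held 15692588 to 18967159 counts. Mcu stood at 18.0, 18.8 and 18.8 CPM (counts scaled to library size) in WAT controls and at 10.1, 12.5 and 10.9 CPM in WAT AKO. In BAT it stood at 26.6, 28.8 and 24.0 CPM in controls and at 9.47, 14.6 and 8.29 CPM in AKO, so AKO lay below control in each tissue without overlap. Even so, Mcu did not pass edgeR's test in WAT (log2 -0.75, adjusted p = 0.0799) or in BAT (log2 -1.27, adjusted p = 0.202). A gene that does not pass between genotypes is therefore not shown to be unchanged. All 7 brown adipocyte markers were higher in BAT than in WAT in both genotypes (edgeR), with a summed level of 6943 to 8897 CPM in BAT and 22.8 to 59.0 CPM in WAT. Ucp1 had no count in WAT control 2. Adipocyte markers summed to between 19284 and 29104 CPM in the 12 libraries. Skeletal muscle markers were high in WAT AKO 2 (2.26% of all counts), BAT AKO 2 (1.70%) and WAT control 1 (1.28%), and reached at most 0.319% elsewhere. B and T lymphocyte markers were unevenly spread over WAT: B markers summed to 3.11, 307 and 2.43 CPM in the controls and to between 360.3 and 865 CPM in AKO. In bulk tissue, fewer cells of a type and less RNA per cell cannot be told apart.

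Levels of most of these genes differed by depot, and none of the 9 passed an adjusted p of 0.05 between genotypes in edgeR. In edgeR's quasi-likelihood test with Benjamini-Hochberg adjustment over all genes, BAT differed from WAT in 7 of the 9 genes in controls, 5 higher and 2 lower. Of all 15031 genes tested there, 50.1% were called, 24.4% higher and 25.7% lower. In AKO, 8 of the 9 differed by depot, 6 higher and 2 lower, against 59.3% of 15671 genes (28.8% higher and 30.5% lower). Adrb1, Adrb3, Npr1, Prkar2b and Pde4d were higher in BAT in both genotypes, Npr3 and Adcy5 were lower in both, and Adora1 was higher in AKO. In controls, leaving out any 1 library cost the Adrb3 call, the Prkar2b call or both, and left 5 to 6 of the 9. The groups of the 2 depots did not overlap for 7 genes in controls (61.4% of all genes) and for 8 in AKO (67.5%). With only 9 genes, these counts are a description.

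**Figure D1:**
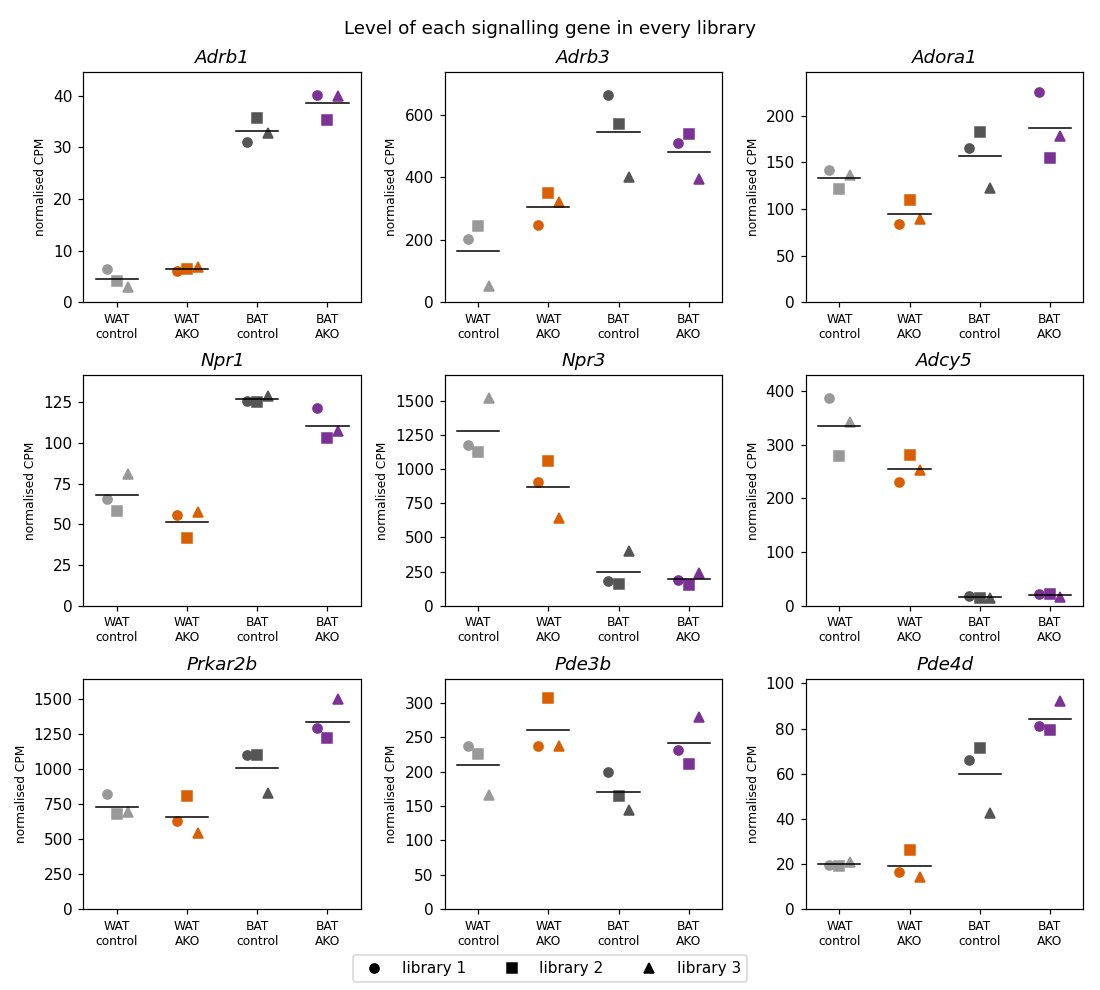
Level of each of the 9 genes in every library, in CPM on axes that start at 0 and differ between panels. Points are libraries, the shape gives the replicate number and the bar is the group mean. Adrb1 sits at 31.0 CPM or above in BAT and at 6.75 CPM or below in WAT, while Adcy5 sits at 231 CPM or above in WAT and at 22.4 CPM or below in BAT.

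The 3 genes with the widest depot difference in controls were Adrb1, Npr3 and Adcy5, and the 250 bases before their RefSeq transcription start are given to show the promoter region of these 3. The RefSeq start lies 82 bases upstream of the annotated mm10 gene start in Adrb1, 84 bases upstream in Npr3 and 13 bases upstream in Adcy5. The sequences are from RefSeq on GRCm38.p6, in the gene's own direction, with matches to a searched motif in capitals. Adrb1 is at chr19:56721867-56722116 (+ strand), Npr3 at chr15:11907372-11907621 (- strand) and Adcy5 at chr16:35154614-35154863 (+ strand).
Adrb1: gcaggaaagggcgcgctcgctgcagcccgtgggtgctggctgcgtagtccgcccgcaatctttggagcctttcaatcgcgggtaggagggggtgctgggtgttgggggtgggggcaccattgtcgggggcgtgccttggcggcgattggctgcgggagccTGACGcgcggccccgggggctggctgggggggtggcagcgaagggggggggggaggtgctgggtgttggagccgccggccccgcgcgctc
Npr3: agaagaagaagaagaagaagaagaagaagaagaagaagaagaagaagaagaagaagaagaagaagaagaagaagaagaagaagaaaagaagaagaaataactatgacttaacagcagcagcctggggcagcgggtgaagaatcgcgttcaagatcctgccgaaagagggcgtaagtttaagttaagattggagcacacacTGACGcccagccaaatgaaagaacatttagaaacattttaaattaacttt
Adcy5: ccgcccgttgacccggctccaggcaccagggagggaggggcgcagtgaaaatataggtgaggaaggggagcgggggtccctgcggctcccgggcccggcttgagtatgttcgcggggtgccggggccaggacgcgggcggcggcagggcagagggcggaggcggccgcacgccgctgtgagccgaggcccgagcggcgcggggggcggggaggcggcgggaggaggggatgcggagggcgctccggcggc
The motifs searched on both strands were the cAMP response element TGACGTCA, its short form TGACG, which reads CGTCA on the opposite strand, and the nuclear receptor core AGGTCA, which reads TGACCT there. The short form lies within the full element. Of 32851 RefSeq windows of the same length, 1.55% held TGACGTCA, 17.8% held TGACG and 14.0% held AGGTCA. Promoter windows were matched for 7 of the 9 genes, 9 windows in all. The Pde4d window precedes a RefSeq start at chr13:108654177, far inside the gene, which is annotated from 108449948. Adora1 and Prkar2b also had windows before a start inside the annotated gene. Only Adrb1 and Npr3 held a match, a TGACG that began 90 bases before the RefSeq start in Adrb1 and 50 bases before it in Npr3. These 2 genes lay on opposite sides of the depot comparison, and the Adcy5 window held none of the motifs.

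Adrb1 encodes the beta-1 adrenergic receptor (ENSMUSG00000035283, mm10, chr19:56722199-56733113). In WAT controls it stood at 6.42, 4.07 and 2.93 CPM, and in BAT controls at 31.0, 35.6 and 32.7 CPM. WAT AKO gave 6.06, 6.38 and 6.75 CPM, and BAT AKO gave 40.2, 35.3 and 39.9 CPM. Every BAT library was above every WAT library. Adrb1 was 7.36-fold higher in BAT than in WAT in controls (log2 2.88, SE 0.28, adjusted p = 0.000306, edgeR) and 6.32-fold higher in AKO (log2 2.66, SE 0.117, adjusted p = 5.82e-06).

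Adrb3 encodes the beta-3 receptor, the main beta receptor of rodent adipocytes (ENSMUSG00000031489, chr8:27225776-27250616). WAT controls gave 201, 242 and 50.1 CPM, and BAT controls gave 664, 569 and 399 CPM. The spread was widest in WAT controls, where library 3 lay 4.43-fold below the mean of the other 2. WAT AKO gave 248, 348 and 321 CPM, and BAT AKO gave 509.5, 539 and 393 CPM. The depots did not overlap in either genotype. Adrb3 was 3.28-fold higher in BAT in controls (log2 1.72, SE 0.544, adjusted p = 0.0357, edgeR) and 1.65-fold higher in AKO (log2 0.72, SE 0.178, adjusted p = 0.00971). In controls the call was lost when WAT control 1 or any BAT control was left out (adjusted p = 0.0541 to 0.0955, edgeR). Without WAT control 3 the difference was 1.29 on the log2 scale (adjusted p = 0.00806). Scaled by library totals alone, the differences were 1.35 in controls (adjusted p = 0.0685) and 0.15 in AKO (adjusted p = 0.421). With the 12 libraries in 1 fit, the AKO call was also lost (adjusted p = 0.224). Gm45470, a gene on the opposite strand, shares 839 exon bases with Adrb3 and held 23 to 295 counts a library; with no strand setting given, reads of the 2 cannot be told apart.

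Adora1 encodes the adenosine A1 receptor, which inhibits adenylyl cyclase through Gi (ENSMUSG00000042429, chr1:134199223-134235431). In controls the depots overlapped: WAT gave 142, 122 and 136 CPM, and BAT gave 165, 182 and 123 CPM (log2 0.23, SE 0.163, 95% interval -0.16 to 0.62, adjusted p = 0.281, edgeR). In AKO the depots were apart, at 84.1, 109 and 89.4 CPM in WAT and 226, 155 and 179 CPM in BAT. Adora1 was 2.07-fold higher in BAT there (log2 1.05, SE 0.175, adjusted p = 0.00152, edgeR). Whether that depot difference itself differed between genotypes is the interaction term given with the AKO results, which did not pass. Mybph, on the opposite strand, shares 1162 exon bases with Adora1 and reached 178 counts in WAT AKO 2, against a median of 1.5 counts over the libraries.

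Npr1 encodes the guanylyl cyclase receptor of atrial and B-type natriuretic peptide (ENSMUSG00000027931, chr3:90450591-90465866). Controls gave 65.5, 58.3 and 81.2 CPM in WAT and 126, 125 and 129 CPM in BAT. AKO gave 56.0, 41.9 and 57.3 CPM in WAT and 121, 103 and 107 CPM in BAT. All BAT libraries were above all WAT libraries, and Npr1 was 1.85-fold higher in BAT in controls (log2 0.88, SE 0.133, adjusted p = 0.00183, edgeR) and 2.25-fold higher in AKO (log2 1.17, SE 0.134, adjusted p = 0.00024).

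Npr3, the clearance receptor (ENSMUSG00000022206, chr15:11839896-11907287), ran the other way. WAT controls gave 1178, 1126 and 1519.5 CPM, and BAT controls gave 180.1, 156 and 399.9 CPM. WAT AKO gave 906, 1056 and 644 CPM, and BAT AKO gave 188, 152 and 238 CPM. Every WAT library was above every BAT library, and BAT control 3 was 2.38-fold the mean of the other 2 BAT controls. Npr3 was 5.22-fold lower in BAT in controls (log2 -2.38, SE 0.379, adjusted p = 0.00229, edgeR) and 4.3-fold lower in AKO (log2 -2.11, SE 0.242, adjusted p = 0.000239). Both control libraries numbered 3 were the lowest of their group in Adrb3 and the highest in Npr3.

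Adcy5, the adenylyl cyclase (ENSMUSG00000022840, chr16:35154877-35305738), had the widest depot difference of the 9 in both genotypes. WAT controls gave 386, 278 and 342 CPM, and BAT controls gave 18.2, 15.2 and 14.1 CPM. WAT AKO gave 231, 281 and 253 CPM, and BAT AKO gave 22.4, 22.4 and 16.4 CPM. No library of one depot came near the range of the other. Adcy5 was 21.3-fold lower in BAT in controls (log2 -4.41, SE 0.181, adjusted p = 3.15e-05, edgeR) and 11.9-fold lower in AKO (log2 -3.57, SE 0.17, adjusted p = 6.47e-06).

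Prkar2b encodes the type II beta regulatory subunit of protein kinase A, which holds the catalytic subunits inactive until cyclic AMP binds (ENSMUSG00000002997, chr12:31958476-32061296). Controls gave 822, 679 and 689.6 CPM in WAT and 1098, 1100.1 and 830.2 CPM in BAT. Every BAT library was above every WAT library, and the 1.38-fold difference was close to the threshold (log2 0.46, SE 0.16, adjusted p = 0.0488, edgeR). It was lost without WAT control 2 or 3 or BAT control 1 or 2 (adjusted p = 0.101 to 0.15), with no filter on low counts (adjusted p = 0.107), with relative log expression scaling (adjusted p = 0.0507) and with library totals (log2 0.10, adjusted p = 0.553). In AKO the libraries gave 631, 806 and 543 CPM in WAT and 1289.5, 1220.4 and 1499 CPM in BAT. There Prkar2b was 2.12-fold higher in BAT (log2 1.08, SE 0.179, adjusted p = 0.00145, edgeR).

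Pde3b encodes the phosphodiesterase through which insulin lowers cyclic AMP in adipocytes (ENSMUSG00000030671, chr7:114415281-114539251). Controls gave 238, 226 and 166 CPM in WAT and 199.6, 165 and 145 CPM in BAT. AKO gave 237, 307 and 237 CPM in WAT and 232, 211 and 279.6 CPM in BAT. The depots overlapped in both genotypes, and neither difference passed (log2 -0.31, 95% interval -0.75 to 0.12, adjusted p = 0.195 in controls; log2 -0.046, 95% interval -0.42 to 0.33, adjusted p = 0.825 in AKO; edgeR). Scaled by library totals alone, Pde3b was lower in BAT in controls (log2 -0.67, adjusted p = 0.0168) and in AKO (log2 -0.61, adjusted p = 0.00489).

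Pde4d encodes a cyclic AMP-specific phosphodiesterase (ENSMUSG00000021699, chr13:108449948-109953461). Controls gave 19.5, 19.1 and 21.0 CPM in WAT and 66.2, 71.2 and 42.4 CPM in BAT. AKO gave 16.6, 26.1 and 14.5 CPM in WAT and 81.0, 79.2 and 92.3 CPM in BAT. The depots were apart in both genotypes. Pde4d was 3.0-fold higher in BAT in controls (log2 1.59, SE 0.197, adjusted p = 0.00084, edgeR) and 4.63-fold higher in AKO (log2 2.21, SE 0.229, adjusted p = 0.000146).

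**Figure D2:**
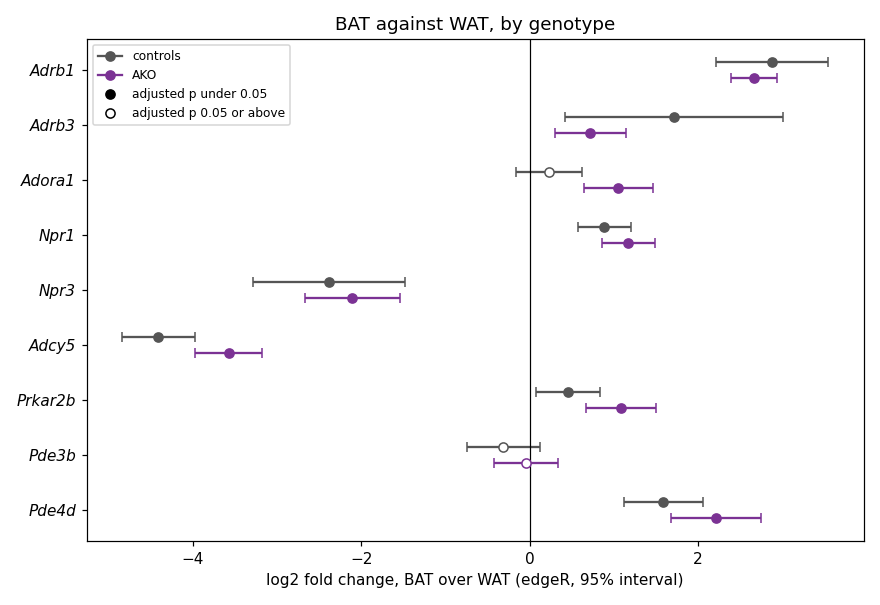
Log2 fold change of BAT over WAT for each gene, in controls (grey) and AKO (purple), with 95% intervals from edgeR. Filled points passed an adjusted p of 0.05. Adcy5 at -4.41 and Npr3 at -2.38 in controls lie left of 0, Adrb1 at 2.88 lies farthest right, and Pde3b is open in both genotypes.

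Scaling bears on how these values are read. Library totals alone moved the median gene to -0.40 in controls and -0.60 in AKO on the log2 scale, against -0.036 and -0.018 with the scaling factors used here. The calls over all genes then split into 2107 higher and 6253 lower in controls, against 3666 and 3858, and into 2068 and 8759 in AKO, against 4510 and 4781. Adrb1, Npr1 and Pde4d stayed higher and Npr3 and Adcy5 lower in BAT under both scalings in both genotypes. Markers of other cell types also differed by depot. All 6 macrophage markers were lower in BAT in both genotypes (edgeR), summing to 221 to 428 CPM in WAT and 65.7 to 98.7 CPM in BAT, with none at 0. Of the 5 progenitor markers 4 were lower in BAT in both genotypes, with sums of 374 to 745 CPM in WAT and 162 to 340.4 CPM in BAT. All 6 B and all 6 T lymphocyte markers were lower in BAT in AKO (medians -6.81 and -5.59). In controls all 4 T markers that could be tested were lower (median -4.65), while of 3 B markers tested edgeR and DESeq2 called 0, with 2 at an unadjusted p below 0.05. In BAT the B markers summed to 1.68 to 10.5 CPM and the T markers to 1.53 to 5.15 CPM, with Cd3d and Cd3g at 0 in BAT control 3. Endothelial markers were higher in BAT for 4 of 6 in AKO (median 1.21) and 1 of 6 in controls (median 0.52), with sums of 559 to 1308 CPM in WAT and 1122 to 1485 CPM in BAT. The part of these markers in the depot differences was not tested.

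Levels of different genes can be compared only per gene length, as FPKM (fragments scaled to gene length and library size). FPKM keeps the library totals as its scale. In WAT controls the order was Prkar2b (mean 223 FPKM), Npr3 (205), Adrb3 (54.7), Adcy5 (53.1), Pde3b (25.7), Adora1 (25.7), Npr1 (15.9), Adrb1 (1.99) and Pde4d (1.85 FPKM). Libraries of Prkar2b and Npr3 overlapped there, as did those of Adrb3 and Adcy5, of Pde3b and Adora1, and of Adrb1 and Pde4d. In BAT controls the order was Prkar2b (239 FPKM), Adrb3 (139), Npr3 (30.7), Adora1 (23.5), Npr1 (23.0), Pde3b (16.1), Adrb1 (11.5), Pde4d (4.32) and Adcy5 (1.96 FPKM). There, Npr3 overlapped Adora1 and Adora1 overlapped Npr1. Prkar2b headed the list in all 4 groups. In WAT AKO the order was that of WAT controls, and of the neighbours only Npr3 and Adrb3, at 151 and 109 FPKM, overlapped. In BAT AKO, Adora1 (27.5 FPKM), Npr3 (23.7), Pde3b (22.5) and Npr1 (19.7 FPKM) followed each other with overlap between neighbours.

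Within their gene families, the shares of Adcy5 and Pde3b lay apart in the depots. These shares and ratios, taken within each library from FPKM, were chosen after the values were seen. Adcy5 made up 49.9%, 38.8% and 42.0% of the summed FPKM of the 9 membrane adenylyl cyclases (Adcy1 to Adcy9) in WAT controls and 2.70%, 1.87% and 2.17% in BAT controls. In AKO the mean was 40.5% ± 5.06 (SD, n = 3) in WAT and 2.81% ± 0.585 in BAT. Adcy6 held the largest of the shares computed in BAT, 45.7% ± 3.5 in controls and 52.2% ± 2.15 in AKO, against 29.8% and 28.5% in WAT. Adcy3 stood at 3.64% in WAT and 15.4% in BAT in controls, and at 4.25% and 16.2% in AKO. The depots did not overlap for any of these 3 shares, and the exact two-sided permutation p was 0.1 in each, the smallest that 3 against 3 can give.

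Pde3b held 73.8% ± 7.27 of the FPKM of families 3 and 4 of phosphodiesterases in WAT controls (SD, n = 3) and 44.6% ± 4.4 in BAT controls. In AKO the shares were 78.9% ± 2.58 and 49.5% ± 3.66. The depots did not overlap (exact permutation p = 0.1). Prkar2b made up most of the 4 protein kinase A regulatory subunits in every group, from 73.7% ± 3.78 in WAT AKO to 84.3% ± 1.38 in BAT AKO.

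**Figure D3:**
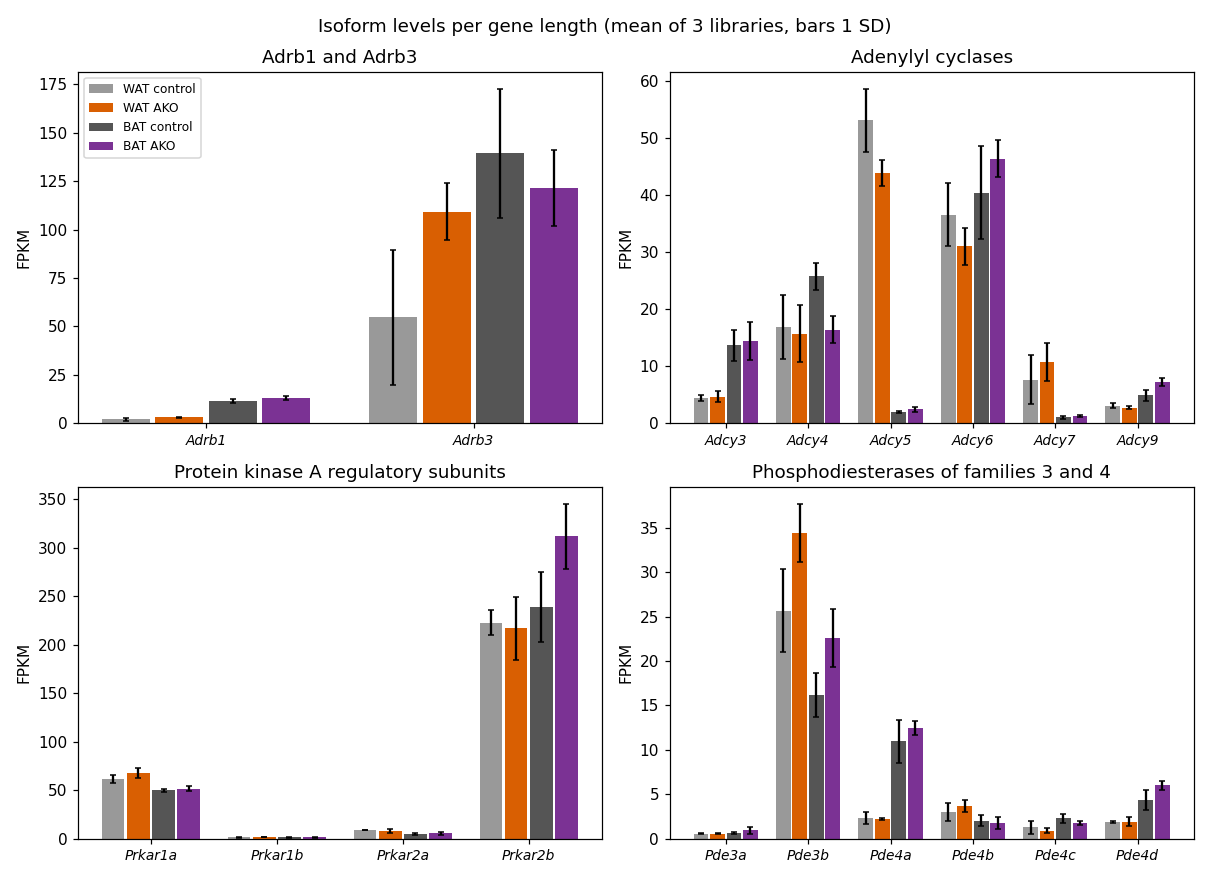
Mean FPKM of Adrb1 and Adrb3, of adenylyl cyclases, protein kinase A regulatory subunits and phosphodiesterases of families 3 and 4, in the 4 groups, with bars of 1 SD over 3 libraries. Adcy5 stands at 53.1 FPKM in WAT controls and 1.96 in BAT controls, and Prkar2b is the highest regulatory subunit in every group.

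The ratio of the clearance receptor to the signalling receptor separated the depots. Npr3 over Npr1 in FPKM was 12.4, 13.3 and 12.9 in WAT controls and 0.990, 0.861 and 2.14 in BAT controls. In AKO it was 11.2, 17.4 and 7.76 in WAT and 1.07, 1.02 and 1.53 in BAT. The lowest WAT library was above the highest BAT library (exact permutation p = 0.1 in each genotype). The genotypes overlapped, with means of 12.1 ± 4.9 in AKO against 12.9 ± 0.452 in controls in WAT (exact permutation p = 0.7) and 1.21 ± 0.282 against 1.33 ± 0.704 in BAT (exact permutation p = 1, n = 3 in each group). Adrb3 over Adrb1 was 26.6 ± 16.0 in WAT controls and 12.2 ± 3.42 in BAT controls, with overlap (exact permutation p = 0.2). In AKO it was 35.2 ± 5.02 in WAT and 9.29 ± 2.0 in BAT, without overlap (exact permutation p = 0.1).

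**Figure D4:**
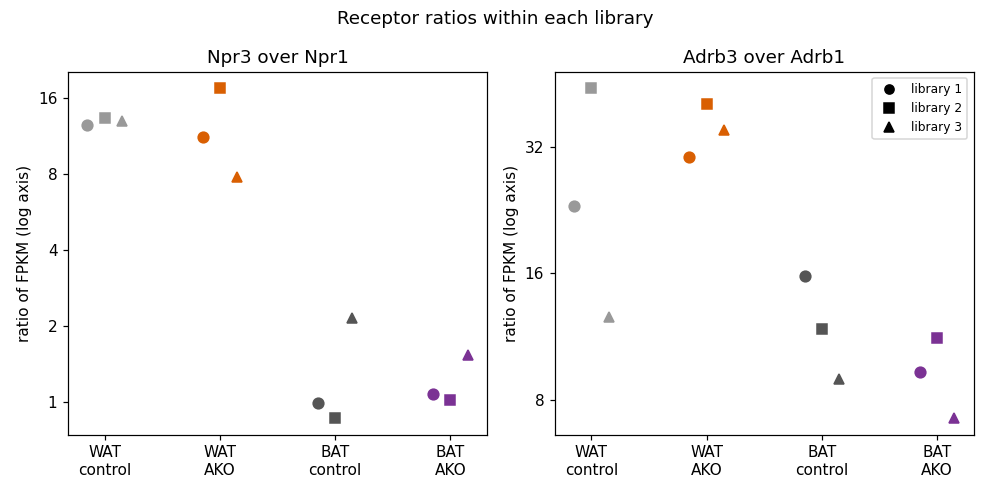
Ratio of Npr3 to Npr1 and of Adrb3 to Adrb1 in each library, from FPKM, on a log axis. Npr3 over Npr1 lies between 7.76 and 17.4 in WAT and between 0.861 and 2.14 in BAT. Adrb3 over Adrb1 overlaps between the depots in controls, where WAT control 3 is at 12.6.

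The second comparison asked how the pathway differs in AKO mice. In WAT, 0 of the 9 genes passed edgeR's test with Benjamini-Hochberg adjustment, against 0.0189% of 15915 genes. Of the 9, 3 had an unadjusted p below 0.05, against 22.6% of all genes, and DESeq2 called 1 of the 9, Adora1, against 9.79% of all genes it tested. Adora1 in WAT AKO lay below every control (log2 -0.52, SE 0.135, unadjusted p = 0.00726, adjusted p = 0.122, edgeR; DESeq2 adjusted p = 0.0214). Npr1 (log2 -0.43, adjusted p = 0.215) and Npr3 (log2 -0.57, adjusted p = 0.222) also lay below their controls without overlap, and Adrb3 lay above (log2 0.88, SE 0.527, 95% interval -0.39 to 2.14, adjusted p = 0.352). Without WAT control 3, the Adrb3 difference was 0.45. Groups did not overlap for 4 of the 9 genes, 1 higher and 3 lower, against 30.4% of all genes (15.9% higher and 14.5% lower).

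The other 5 genes overlapped between genotypes in WAT. Adcy5 had a log2 difference of -0.42 (SE 0.16, adjusted p = 0.197, edgeR), with AKO 2 at 281 CPM just above control 2 at 278 CPM. Adrb1 was at 0.50 (adjusted p = 0.346), Pde3b at 0.30 (adjusted p = 0.368), Prkar2b at -0.16 (adjusted p = 0.629) and Pde4d at -0.079 (adjusted p = 0.864). Of all genes, 1649 were called without WAT control 2, the only WAT control with high lymphocyte markers. Without any other single library 1 was called, against 3 with all 6 libraries. The count among the 9 stayed at 0 whichever library was left out.

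Markers of several other cell types leaned to one side between genotypes in WAT, with none called in edgeR. Over all genes, 22.6% had an unadjusted p below 0.05 in edgeR and DESeq2 called 9.79% of those it tested. All 10 skeletal muscle markers had positive log2 differences (median 0.56, 0 at an unadjusted p below 0.05). Their sums were 176 to 12143 CPM in controls and 110 to 19991 CPM in AKO, with 1 marker at 0 in WAT control 3. All 6 B lymphocyte markers and all 6 T lymphocyte markers had positive log2 differences, with medians of 2.48 and 1.61. None of these 12 passed in edgeR or DESeq2, and 0 had an unadjusted p below 0.05. T lymphocyte markers summed to 7.98, 170.3 and 14.7 CPM in WAT controls and to between 146 and 263 CPM in AKO. Ms4a1 had no count in WAT control 1, and no other B or T marker was at 0 in WAT. All 6 macrophage markers had negative differences (median -0.79; edgeR called 0, with 5 at an unadjusted p below 0.05, and DESeq2 called 4), with sums of 279 to 428 CPM in controls and 221 to 240.5 CPM in AKO. Of the 7 adipocyte markers 6 were negative (median -0.25; edgeR called 0, with 1 at an unadjusted p below 0.05, and DESeq2 called 1), with sums of 23373 to 29104 CPM in controls and 20512 to 24435 CPM in AKO. Progenitor markers summed to 461 to 745 CPM in controls and 374 to 457 CPM in AKO, and all 5 were negative (median -0.33; 1 had an unadjusted p below 0.05 and DESeq2 called 1). All 5 mural markers were negative as well (median -0.62, 1 at an unadjusted p below 0.05 and 1 called by DESeq2), with sums of 755, 605 and 1310 CPM in controls and 572 to 669 CPM in AKO. So were all 6 endothelial markers (median -0.44, 1 at an unadjusted p below 0.05 and 0 called by DESeq2), with sums of 726, 683 and 1308 CPM in controls and 559 to 789 CPM in AKO. Mural and endothelial sums were thus high in WAT control 3 alone, the WAT control lowest in Adrb3 and highest in Npr3. The part of these cell types in the values of the 9 genes and of the further pathway genes in WAT was not tested.

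In BAT, edgeR called 0 of the 9 genes, against 0.0771% of 14265 genes, 4 had an unadjusted p below 0.05 against 13.6% of all genes, and DESeq2 called 1, Pde3b, against 2.16% of all genes it tested. The intracellular members Pde3b, Pde4d and Prkar2b lay above every control in AKO. Pde3b had a log2 difference of 0.53 (SE 0.144, unadjusted p = 0.00777, adjusted p = 0.27, edgeR; DESeq2 adjusted p = 0.0325). Pde4d was at 0.51 (SE 0.182, adjusted p = 0.328) and Prkar2b at 0.43 (SE 0.128, adjusted p = 0.286). Npr1 lay below every control (log2 -0.18, SE 0.0846, adjusted p = 0.405). Groups did not overlap for these 4 of the 9, 3 higher and 1 lower, against 19.7% of all genes (8.19% higher and 11.5% lower). Skeletal muscle markers had positive differences in BAT too, all 10 of them (median 3.36; edgeR and DESeq2 called 0, and 0 had an unadjusted p below 0.05), with BAT AKO 2 the high library. Of the 3 libraries with most muscle counts, BAT AKO 2 alone is in this comparison. Without it, the differences were 0.60 for Pde3b, 0.54 for Pde4d and 0.47 for Prkar2b. BAT control 1, with muscle markers at 2066 CPM, stayed in. Macrophage markers were negative for 5 of 6 (median -0.58; edgeR called 0, with 3 at an unadjusted p below 0.05, and DESeq2 called 1), with sums of 81.4 to 98.7 CPM in BAT controls and 65.7 to 82.5 CPM in BAT AKO. Endothelial markers were negative for 4 of 6 (median -0.080; edgeR called 0, with 3 at an unadjusted p below 0.05, and DESeq2 called 1), with sums of 1277 to 1485 CPM in controls and 1122 to 1296 CPM in AKO. Progenitor markers were negative for 3 of 5 (median -0.067; edgeR called 0, with 1 at an unadjusted p below 0.05, and DESeq2 called 1), with sums of 245 to 340.4 CPM in controls and 162 to 263 CPM in AKO. No macrophage, endothelial or progenitor marker was at 0 in BAT, while Ckm, Myh4 and Pvalb of muscle were at 0 in BAT AKO 1 and Myh1, Myh2, Tnni2 and Atp2a1 in BAT control 3. The part of these markers in the values of the 9 genes in BAT was not tested.

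The receptors and Adcy5 overlapped between genotypes in BAT apart from Npr1. Adcy5 had a log2 difference of 0.39 (SE 0.165, adjusted p = 0.367, edgeR), Adora1 of 0.27 (adjusted p = 0.521) and Adrb1 of 0.24 (SE 0.0889, adjusted p = 0.34). Adrb3 was at -0.15 (95% interval -0.63 to 0.32, adjusted p = 0.759) and Npr3 at -0.33 (95% interval -1.18 to 0.51, adjusted p = 0.707). Npr3 rested on BAT control 3, the high library: without it the difference was 0.22.

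**Figure D5:**
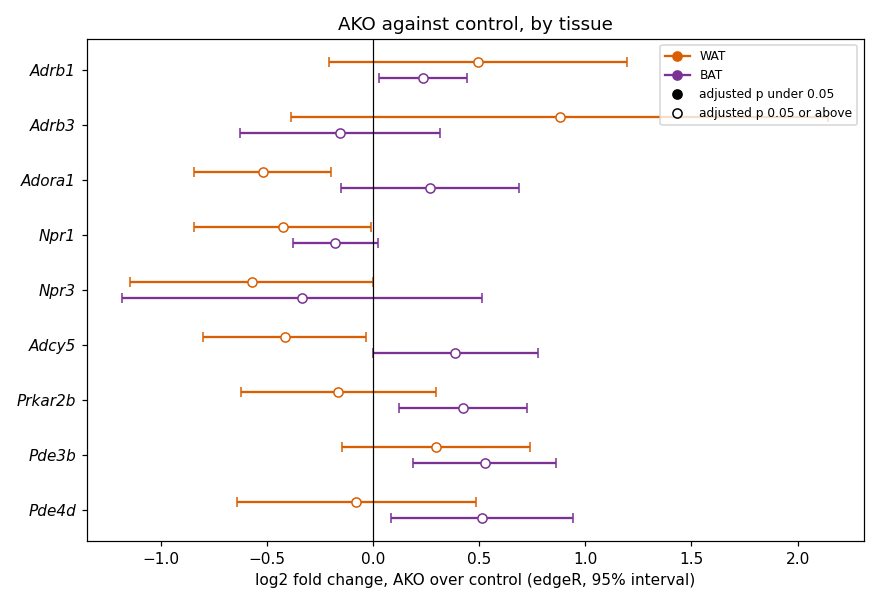
Log2 fold change of AKO over control for each gene in WAT (orange) and BAT (purple), with 95% intervals from edgeR. All points are open, since none passed an adjusted p of 0.05. In WAT Adrb3 has the widest interval, from -0.39 to 2.14, and in BAT the values of Prkar2b, Pde3b and Pde4d lie between 0.43 and 0.53.

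The difference of the AKO effect between the tissues (BAT minus WAT) was tested as an interaction over the 12 libraries. In edgeR, 0 of the 9 genes passed, against 0.275% of 16391 genes. Among them 3 had an unadjusted p below 0.05, against 18.4% of all genes. Adcy5, at -0.42 in WAT and 0.39 in BAT, had a difference of 0.76 (SE 0.228, adjusted p = 0.135). Adora1 had one of 0.75 (SE 0.247, adjusted p = 0.158) and Prkar2b one of 0.55 (SE 0.237, adjusted p = 0.248). DESeq2 called 2 of the 9, Adcy5 (adjusted p = 0.0246) and Adora1 (adjusted p = 0.0364), against 6.62% of all genes it tested, and without WAT control 2 edgeR called Adcy5 (log2 0.88, adjusted p = 0.0459). WAT control 2 was the only WAT control with high B and T lymphocyte markers (307 and 170 CPM), whose part in this call was not tested. The other 6 ran from -1.07 for Adrb3 (SE 0.617, adjusted p = 0.379) to 0.55 for Pde4d (adjusted p = 0.376).

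Beyond the 9 genes, 105 further genes of the pathway were counted. Between depots in controls, 21 were higher and 27 lower in BAT of 90 tested (median log2 -0.15, against -0.036 over all genes). These are 23.3% and 30.0%, near the 24.4% and 25.7% of all genes. In AKO, 30 were higher and 33 lower of 93 (median 0.063, against -0.018), or 32.3% and 35.5% against 28.8% and 30.5% of all genes. By class, the other adenylyl cyclases had 5 higher and 1 lower of 8 in controls, and 5 higher and 2 lower in AKO. Those higher in controls were Adcy10 (log2 2.97), Adcy3 (1.98), Adcy9 (1.00), Adcy4 (0.96) and Adcy6 (0.51), and the one lower there was Adcy7 (-2.48), named here after their values were seen. Also named after their values were seen, the alpha receptors Adra1a (log2 2.29) and Adra1d (0.79) were higher in BAT in controls. Adra1b (-3.71) and Adra2a (-3.53), a Gi-coupled receptor that restrains lipolysis, were lower. These are the 4 called of 7 further adrenergic receptors tested in controls, and in AKO 1 of 7 was higher and 3 were lower. Of the other Gs- and Gi-coupled receptors of adipocytes, 2 were higher and 9 lower of 18 in controls, and 4 higher and 10 lower in AKO. The 4 with the smallest p in controls were the thyrotropin receptor Tshr (log2 -3.55), the succinate receptor Sucnr1 (-3.49), the corticotropin receptor Mc2r (-3.35) and the inhibitory G protein subunit Gnai1 (-2.29). In AKO they were the anchoring protein Akap1 (log2 3.40), the G protein subunit Gnao1 (3.36), the phosphodiesterase Pde4a (3.09) and the Gs alpha gene Gnas (2.74). Gnas shares exon bases on the other strand with its antisense gene Nespas (988 bases) and with Gm20721 (1469 bases). With no strand setting given, reads of the shared bases cannot be told apart. The same holds for Gnao1 with 4930488L21Rik.

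Of the 8 listed genes that cyclic AMP induces in many cells, 3 were higher in BAT in controls: Ppargc1a (log2 3.00), Nr4a2 (1.32) and Dusp1 (0.67). These are 37.5%, against 24.4% of all genes. In AKO 4 were higher, the same 3 and Nr4a1 (log2 1.35), or 50% against 28.8% of all genes. None of the 8 passed edgeR's test between genotypes, with 3 at an unadjusted p below 0.05 in WAT (Nr4a2, Nr4a3 and Fos) and 1 in BAT (Ppargc1a). These are 37.5% and 12.5%, against 22.6% and 13.6% of all genes. DESeq2 called Nr4a3 higher and Fos lower in WAT, where edgeR gave 1.94 and -1.03 on the log2 scale, and Ppargc1a higher in BAT, where edgeR gave 0.63. Over all genes it tested, DESeq2 called 9.79% in WAT and 2.16% in BAT.

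Between genotypes in WAT, edgeR called 0 of 93 further pathway genes, with 21 at an unadjusted p below 0.05 and 9 called by DESeq2 (2 higher, 7 lower). The 21 are 22.6% of the 93, the same share as over all genes, and DESeq2 called 9.79% of all genes it tested. The median was -0.11. Among the 4 with the smallest p were the prostaglandin E2 receptor Ptger3, the G protein subunit Gnao1 and the phosphodiesterase Pde1c. Gnao1 stood at 25.2, 24.0 and 32.4 CPM in controls and 14.4, 13.2 and 10.8 CPM in AKO (log2 -1.11, SE 0.178, adjusted p = 0.0762). Pde1c rested on 4 to 7 counts in controls and 17 to 29 in AKO (log2 1.83, SE 0.357, adjusted p = 0.0929). Without WAT control 2 these 3 passed (adjusted p = 0.0165 to 0.0458). That library was the only WAT control with high lymphocyte markers, at 307 CPM for B and 170 CPM for T. The other controls stood at 3.11 and 2.43 CPM for B and at 7.98 and 14.7 CPM for T. The part of lymphocytes in these calls was not tested.

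In BAT, 1 of 84 passed, against 0.0771% of all genes, with 18 (21.4%) at an unadjusted p below 0.05 against 13.6% of all genes and a median of 0.086. It was Pth1r, the parathyroid hormone receptor, which signals through Gs and shares 95 exon bases with the muscle gene Myl3 on the other strand. It fell from 58.2, 49.5 and 53.0 CPM in controls to 24.8, 18.7 and 22.3 CPM in AKO (log2 -1.27, SE 0.116, adjusted p = 0.0267, edgeR). The groups were far apart, but the call was lost without BAT control 1, BAT control 3 or any BAT AKO library (adjusted p = 0.0821 to 0.181). Next in order of p were Ptger3 (log2 0.46, SE 0.0766, adjusted p = 0.194), the adenylyl cyclase Adcy4 (log2 -0.60, adjusted p = 0.243) and the anchoring protein Akap9 (log2 0.34, adjusted p = 0.243).

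Ptger3, a Gi-coupled receptor that lowers cyclic AMP as ADORA1 does, had opposite signs in the tissues. In WAT it stood at 129, 117 and 188 CPM in controls and 55.8, 54.8 and 36.2 CPM in AKO (log2 -1.58, SE 0.256, adjusted p = 0.0772, edgeR). In BAT it stood at 50.8, 56.0 and 54.8 CPM in controls and 73.4, 70.3 and 76.0 CPM in AKO. Its interaction passed (log2 2.01, SE 0.27, adjusted p = 0.0249), the only one of 93 further pathway genes to do so in edgeR. That is 1.08% of the 93, against 0.275% of all genes. The call was lost when any one of 7 of the 12 libraries was left out (adjusted p = 0.0524 to 0.0811) and without the 3 libraries with most muscle counts (adjusted p = 0.0831). Gnao1 (log2 1.28, adjusted p = 0.0656) and Pde8a (0.78, adjusted p = 0.108) were among the next in order of p.

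The genes whose log2 CPM ran most like each of the 9 over the 12 libraries were found by Pearson's r among 11987 candidates. They are given as a description, since the libraries differ by depot and genotype. Adrb1 was most like Hemk1 (r = 0.995), Npr3 most like Fam110c (0.99) and Adcy5 most like Slc7a10 (0.995). After the group means were taken out, these r were 0.84, 0.951 and 0.699. Adrb3 was most like Pck1, an enzyme of glyceroneogenesis in fat (r = 0.967, and 0.93 after group means). Pde4d was most like Csnk2a1 (0.989), Npr1 most like Nectin2 (0.986), Prkar2b most like Dpf3 (0.985), Adora1 most like Tlcd1 (0.953) and Pde3b most like Negr1 (0.922).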

How the data were processed

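RNA-seq libraries of polyA RNA were made with a VAHTS V6 kit, per the labels' protocols. The authors' deposited tables hold raw read counts per gene and FPKM, 12 columns each. Bowtie2 2.2.3, HISAT2 2.1.0, HTSeq 0.6.0 and mm10 are named in the submitters' processing notes. The strand setting is not given in the sources used here. In the deposited FPKM, values within a gene followed count over library total. Symbols were matched for 52403 of 52550 gene IDs (147 without). Coordinates of genes are from GENCODE M21 (mm10).

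The 9 genes and all lists were chosen with earlier results of these data known. The count test was edgeR's (4.0.16, R 4.3.3): filterByExpr (minimum count 10, minimum total 15), TMM scaling, glmQLFit and glmQLFTest with Benjamini-Hochberg adjustment over all genes, threshold 0.05. Each of 4 contrasts used its own 6 libraries and the interaction all 12. Printed CPM use TMM factors over the 12 libraries. Shares and ratios were compared with exact permutation tests, two-sided. The test was checked on simulated data. Further pathway genes were named as the 4 with the smallest p per comparison (1 of them is counted but not reported here), like genes as the highest 2 by r among genes with a mean of at least 2 CPM (1 is given for each), with a prior count of 2. Replicate pairs differed by 16.5 to 83.4 chi-square per degree of freedom, so no library was a copy. Same-numbered libraries of the depots deviated together within a genotype (r = 0.238 to 0.517 in controls, 0.136 to 0.676 in AKO, 3 of 3 pairs above 0.1). The numbers may thus pair them, which no label states, although BAT AKO 3 was closer to another WAT AKO library (r = 0.236). The main depot and interaction tests used no pairing, and a block was run only as an alternative. Alternatives were DESeq2 1.42.0, relative log expression scaling, library totals, no filter, a replicate block, 1 fit of all libraries, and leaving out each library or the 3 with most muscle counts. Library totals and the block within genotype were chosen after seeing the data.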

Additional observations from a re-analysis of the deposited data

Results flagged for a closer look

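Ptger3 stood out because its AKO effect differed between the tissues by a test of the difference itself. The effect in BAT minus that in WAT was 2.01 on the log2 scale (SE 0.27, adjusted p = 0.0249, edgeR), with all 3 AKO libraries below all controls in WAT and above all controls in BAT. Leaving out 1 library gave 1.78 to 2.15. The call was lost without WAT AKO 1, WAT AKO 3, BAT control 1, BAT control 3 or any BAT AKO library (adjusted p = 0.0524 to 0.0811) and without the 3 libraries with most muscle counts (log2 2.24, adjusted p = 0.0831). The part of other cell types in this difference was not tested.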

How the results depend on the processing

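Of all genes, edgeR called 3 between genotypes in WAT, 11 in BAT and 45 in the interaction. With no filter on low counts these were 277, 33 and 132, and with DESeq2 1618, 265 and 941. Without the 3 libraries with most muscle counts they were 0, 1 and 5. The libraries left out were WAT control 1 and WAT AKO 2 in WAT, only BAT AKO 2 in BAT and all 3 in the interaction. Leaving out 1 library gave 1 to 1649 in WAT, 0 to 95 in BAT and 2 to 923 in the interaction, the highest each time without control 2 of WAT, BAT and WAT. The WAT count was 1030 with all 12 libraries in 1 fit, and the interaction count 22 with library totals. Among the 9 genes DESeq2 called 1 in WAT, 1 in BAT and 2 in the interaction, and leaving out 1 library gave 0 to 1 in the interaction. In the depot comparisons, leaving out 1 library gave 5940 to 7085 genes in controls and 8033 to 9343 in AKO, and 5 to 6 and 8 of the 9 genes.

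The numbers shared by the genotypes did not pair libraries (r = -0.472 to 0.219 in WAT and -0.615 to 0.114 in BAT, 1 of 3 pairs above 0.1 in each). With the replicate block, 0 genes were called in WAT and 1 in BAT, and Pth1r in BAT was not (log2 -1.27, adjusted p = 0.151). In the interaction a block within genotype gave 261 genes. The block changed no call among the 9 genes.

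Signs turned for small differences. Pde4d in WAT AKO was 0.0387 with library totals and ran from -0.388 to 0.0821 without 1 library (positive without WAT AKO 1 or 3). Without 1 library, Adrb3 in BAT AKO ran from -0.334 to 0.00696 (positive without BAT control 1) and Npr3 there from -0.578 to 0.221 (positive without BAT control 3). Adora1 between depots in controls was -0.129 with library totals. Pde3b between depots in AKO was 0.196 without the muscle libraries and -0.153 to 0.112 without 1 library (positive without WAT AKO 2 or BAT AKO 2). The Npr3 interaction ran from -0.0324 (without BAT control 2) to 0.755. The causes were not tested.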
